A study of Rattus norvegicus with 8 samples.

Results

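The endothelin and nitric oxide pathway sets vessel tone from within the vessel wall, and its genes were compared between 2 rat strains in the left ventricle. The members were chosen by name: the endothelin genes Edn1, Edn2 and Edn3, the receptor genes Ednra and Ednrb, the converting enzyme gene Ece1, the nitric oxide synthase genes Nos1, Nos2 and Nos3, and Gucy1b3, a subunit gene of the nitric oxide receptor that is now called Gucy1b1. A member was measured where probe sets of the array were annotated to it and to no other gene. This held for 8 of the 10 members, which had 117 of the 220231 probe sets and were 8 of the 17309 genes measured. Ednra and Ednrb were not analysed here, because the annotation used names no probe set for either of them alone. The arrays, 1 for each of 8 untreated male rats on standard chow, carried total RNA of left ventricular muscle taken at 2 months of age. The 4 SHR animals, of the spontaneously hypertensive strain, were numbered 213, 215, 218 and 219. The 4 PD5 animals, of a minimal congenic strain of SHR, were numbered 207, 209, 210 and 212. Both strains were bred in one facility. All animals thus share the SHR background, and the transferred segment of PD5 is carried in every one of its cells. No normotensive strain is among these samples, and the labels name neither the donor nor the extent of the segment.

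Endothelins are short peptides cut from larger precursors by the endothelin-converting enzyme. They act on G protein-coupled receptors, of which the A type on smooth muscle constricts vessels, while the B type on endothelium releases nitric oxide. Nitric oxide is made from arginine by the nitric oxide synthases. It binds soluble guanylyl cyclase, and the cyclic GMP that this enzyme forms relaxes smooth muscle. In the heart, endothelial cells are a main source of endothelin-1 and carry the endothelial synthase, cardiomyocytes hold the neuronal synthase, and the inducible synthase is best known from activated macrophages.

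A gene value was the mean of the deposited log2 values of its probe sets, so each difference below is PD5 minus SHR on the log2 scale. Genes were tested with limma over all 17309 genes, with a threshold of 0.05 on the Benjamini-Hochberg adjusted p. Of all genes 9 passed, or 0.052%, and no member of the pathway was among them. The smallest adjusted p of a member was 0.469. Unadjusted, p was under 0.05 in 2 of the 8 members, Nos2 and Edn1, against 5.68% of all genes, 983 in number. The strains did not overlap in 3.46% of genes, 1.58% with PD5 higher, and in 1 of the 8 members, Nos2. The members were chosen with earlier results of these data known, so these member counts are descriptions and cannot show an excess. The median difference of the 8 members was 0.04, with 7 above 0 and 1 below. Over all genes the median was 0.00, with 49.9% above 0. Of the 7, Edn2, Ece1 and Gucy1b1 were each at 0.01 and changed sign under some of the processing alternatives given below. Array medians lay between 6.93 and 6.98. SHR 219 and PD5 210 resembled the other arrays least, with mean correlations of 0.950 and 0.952, and each member's difference without both arrays is given after the members. Since the tissue was measured in bulk, fewer cells of a type and less RNA per cell cannot be told apart.

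**Figure D1:**
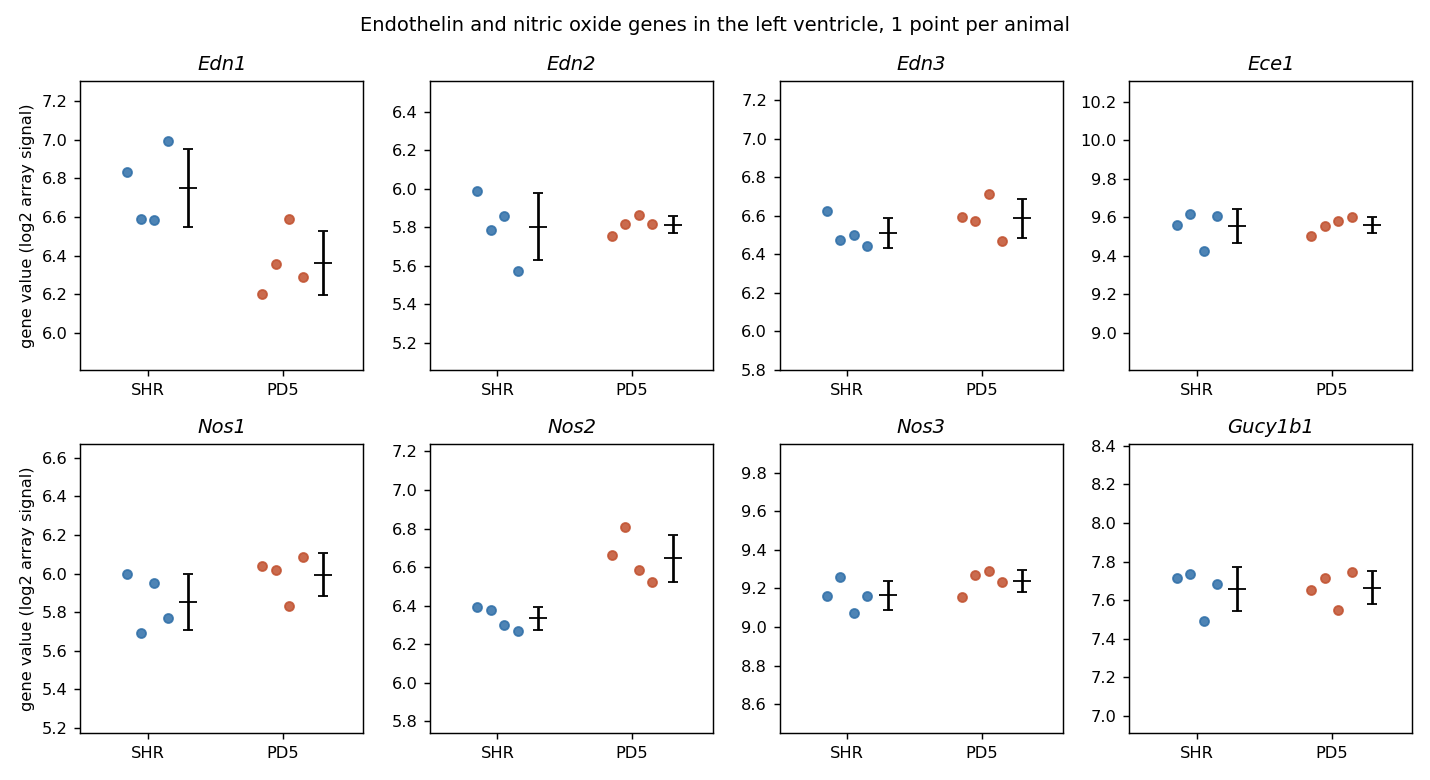
Gene values (vertical axis, log2 array signal) of the 8 measured members in the 4 SHR animals (blue) and the 4 PD5 animals (red), 1 point per animal, with the mean and SD in black. Each panel spans the same range in log2 units, and only the Nos2 panel shows strains that do not overlap.

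Among the ligand genes, Edn1 had the largest difference between the strains, lower in PD5, and it did not pass the adjusted threshold. Edn1, the precursor gene of endothelin-1, the main vasoconstrictor of the family, was lowest in PD5 207, at 6.20, and was at 6.36 in PD5 209, 6.59 in PD5 210 and 6.29 in PD5 212. In SHR it was at 6.83 in SHR 213, 6.59 in SHR 215, 6.58 in SHR 218 and 6.99 in SHR 219. PD5 210 was the highest of its strain and lay level with SHR 215 and SHR 218, so the strains overlapped at that point, while the other 3 PD5 animals lay below every SHR animal. The mean was 6.36 ± 0.17 in PD5 against 6.75 ± 0.20 in SHR (SD over 4 animals each), a difference of -0.39 (SE 0.12, 95% interval -0.65 to -0.13), or a signal 1.31-fold higher in SHR. The level of Edn1 was at the 46.1 percentile of gene levels, and no background level was given. The unadjusted p in limma was 0.00861, rank 236 of all genes, and the adjusted p was 0.631, so the difference did not pass. A two-sided exact permutation test of the 8 values gave p = 0.0857.

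The probe sets of Edn1 differed in size but not in direction. All 7 had a lower mean in PD5, with differences from -0.96 to -0.02. In 2 of the 7 the strains did not overlap, where this held in 2.87% of all probe sets, 1.43% on the lower side of PD5. Probe set 17718795 lay between 6.29 and 6.63 in PD5 and between 7.28 and 7.72 in SHR. Probe set 17718796 lay between 6.34 and 6.67 in PD5 and between 6.84 and 7.29 in SHR. The gap between the strains was wider than the range within either strain in the first of these and narrower in the second. Neither passed over all probe sets (adjusted p = 0.524 and 0.904 in limma), as 0.000908% of all probe sets did. The brightest probe set of the gene, 17718794, had a difference of -0.02, with 7.65 to 7.87 in PD5 and 7.24 to 8.36 in SHR. The gene's difference was therefore -0.53 with the median of its probe sets and -0.02 with the brightest one. Probe sets of a gene share the same arrays and animals and are not replicates.

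The promoter of Edn1 is shown beside that of Nos3, the other member best known from endothelium, because the strains differed in the level of the first at an unadjusted p under 0.05 and not in that of the second. The sequences are the 250 bases before the transcript start that the RefSeq table of the GRCr8 build gives, 5′ to 3′ on the gene's strand. Edn1 lies at chr17:22666688-22666937 on the minus strand and Nos3 at chr4:11706582-11706831 on the minus strand. Capitals mark matches to any of 5 motifs searched on both strands.
Edn1: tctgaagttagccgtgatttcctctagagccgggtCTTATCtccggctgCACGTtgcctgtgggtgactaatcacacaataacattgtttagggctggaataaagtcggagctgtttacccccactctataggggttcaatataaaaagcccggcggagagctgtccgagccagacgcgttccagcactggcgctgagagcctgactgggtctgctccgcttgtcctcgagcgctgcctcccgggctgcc
Nos3: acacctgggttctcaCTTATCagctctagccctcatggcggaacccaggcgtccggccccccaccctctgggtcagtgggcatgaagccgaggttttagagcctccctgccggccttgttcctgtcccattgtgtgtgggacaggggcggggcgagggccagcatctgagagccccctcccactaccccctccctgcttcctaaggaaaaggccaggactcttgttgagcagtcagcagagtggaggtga

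Both windows hold GATAAG, the GATA motif, on the reverse strand, which 6.08% of 27457 such windows hold on either strand. That of Edn1 also holds the hypoxia response core ACGTG on the reverse strand, found in 16.9% of windows. Neither holds TGANTCA (AP-1, 6.36% of windows), the NF-κB motif (16.8%) or the full glucocorticoid response element, which 1 window of all holds. Windows were found for 8 of the 10 members, of which Nos1 held the AP-1 letters and the hypoxia core, Ednra the NF-κB letters, and Edn2, Ednrb, Ece1 and Gucy1b1 none of the 5. A match is a run of letters and not evidence of binding. No match overlapped another in the 2 windows shown.

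The other ligand genes did not differ between the strains beyond their spread. Edn2, which encodes endothelin-2, was at 5.81 ± 0.05 in PD5 against 5.80 ± 0.17 in SHR (SD over 4 animals each). Its PD5 values, from 5.75 to 5.86, lay inside the SHR range of 5.57 to 5.99. The difference was 0.01 with a 95% interval from -0.19 to 0.21 (adjusted p = 0.996 in limma). Edn3, which encodes endothelin-3, a ligand that favours the B type receptor, was at 6.59 ± 0.10 in PD5 against 6.51 ± 0.08 in SHR (SD over 4 animals each). Its difference was 0.08 with an interval from -0.09 to 0.24 (adjusted p = 0.989 in limma), and PD5 212 at 6.47 lay within the SHR range of 6.44 to 6.62. Of the 7 probe sets each, 1 of Edn2 and 0 of Edn3 had an unadjusted limma p under 0.05, where 4.98% of all probe sets did. The probe set of Edn2 that did was its brightest and was higher in PD5, at 6.83 ± 0.18 against 6.46 ± 0.20 (SD over 4 animals each). The direction of the Edn2 gene value was not stable: it was -0.038 with the median of the probe sets.

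Ece1, whose product cuts the endothelin precursors to the active peptides, had one of the narrowest intervals, as Nos3 did. It was at 9.50 to 9.60 in PD5 and 9.43 to 9.61 in SHR, so the PD5 range lay within the SHR range. The difference was 0.01 (SE 0.07, 95% interval -0.14 to 0.16), which bounds a change in either direction at about 0.16 on the log2 scale. Of its 19 probe sets 8 were higher in PD5, 9 lower and 2 equal in mean, from -0.21 to 0.24, and 0 had an unadjusted limma p under 0.05. Whether Edn1 and Ece1 differ in their response to the strain was not tested.

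**Figure D2:**
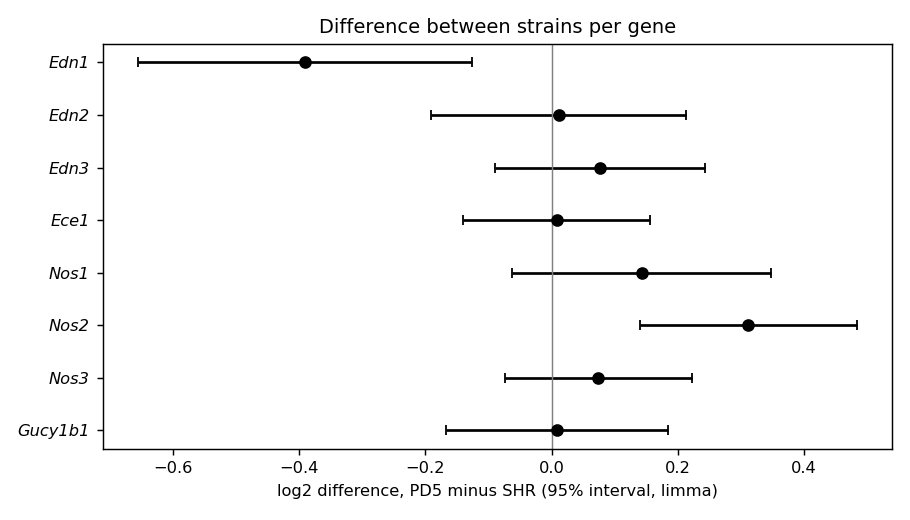
Difference of each measured member between strains (horizontal axis, PD5 minus SHR in log2 units), with the 95% interval of the limma fit. The interval of Edn1 lies below 0 and that of Nos2 above 0, and the other 6 intervals include 0. None of the 8 passed the adjusted threshold.

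Of the nitric oxide synthase genes, Nos2 was the one in which the strains did not overlap, higher in PD5, and it did not pass the adjusted threshold. Nos2, the inducible synthase gene, was at 6.66 in PD5 207, 6.81 in PD5 209, 6.58 in PD5 210 and 6.53 in PD5 212. In SHR it was at 6.39 in SHR 213, 6.38 in SHR 215, 6.30 in SHR 218 and 6.27 in SHR 219. The lowest PD5 animal, PD5 212, lay above the highest SHR animal, SHR 213. The mean was 6.65 ± 0.12 in PD5 against 6.33 ± 0.06 in SHR (SD over 4 animals each), a difference of 0.31 (SE 0.08, 95% interval 0.14 to 0.48), or a signal 1.24-fold higher in PD5. The level of Nos2 was at the 45.3 percentile of gene levels, and no background level was given. The unadjusted p in limma was 0.00263, rank 97 of all genes, and the adjusted p was 0.469, so the difference did not pass. The exact permutation p was 0.0286, the smallest that 4 against 4 animals can give. Any gene whose strains do not overlap has this p, so it adds nothing to the lack of overlap.

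The Nos2 difference was spread over many probe sets of uneven signal. Of its 24 probe sets 17 were higher in PD5 and 7 lower, with a median of 0.22 and a range from -0.24 to 1.37. An unadjusted p under 0.05 in limma was reached by 5, all higher in PD5, where 2.55% of all probe sets did so on that side. Probe set 17648997 lay between 5.64 and 6.77 in PD5 and between 4.70 and 5.45 in SHR. Its SHR mean of 4.99 was below 5.31, the level that bounds the dimmest 25% of probe sets. Probe set 17649007 lay between 7.02 and 7.44 in PD5 and between 6.27 and 6.91 in SHR. These were the 2 of 24 probe sets of the gene in which the strains did not overlap. This held in 2.87% of all probe sets, 1.43% with PD5 higher. Of the 24, 0 passed over all probe sets. The brightest, 17649008, differed the other way, at 8.46 ± 0.09 in PD5 against 8.64 ± 0.30 in SHR (SD over 4 animals each), so the gene's difference was -0.18 when that probe set stood for it. Over the gene, 3 probe sets lay among the dimmest 25% of the array, and without such probe sets, an alternative chosen after seeing the data, the difference was 0.31.

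**Figure D3:**
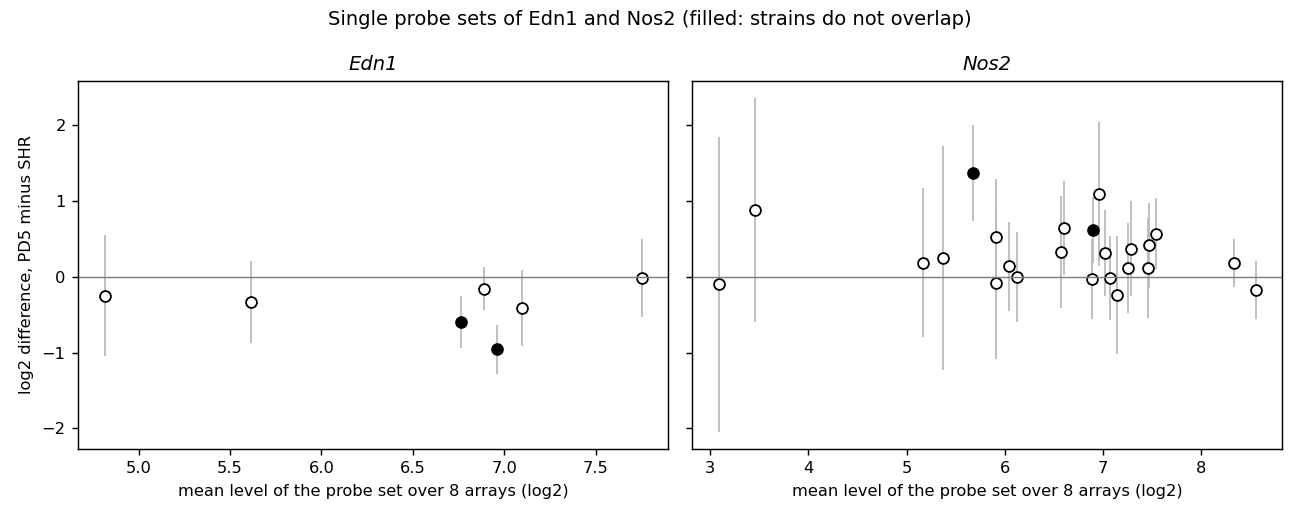
Single probe sets of Edn1 and Nos2, with the mean level over 8 arrays on the horizontal axis (log2) and the difference PD5 minus SHR on the vertical axis (log2), with 95% intervals of the limma fit in grey. Filled points mark the probe sets in which the strains do not overlap, 2 of 7 in Edn1 and 2 of 24 in Nos2, beside 2.87% of all probe sets. All 7 points of Edn1 lie below 0, and 17 of the 24 points of Nos2 lie above 0.

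Nos1 and Nos3, the constitutive synthase genes, overlapped between the strains. Nos1, the neuronal synthase gene, was at 5.99 ± 0.11 in PD5 against 5.85 ± 0.15 in SHR (SD over 4 animals each), a difference of 0.14 with a 95% interval from -0.06 to 0.35 (adjusted p = 0.966 in limma). PD5 210 at 5.83 was the lowest of its strain and lay below SHR 213 and SHR 218, the latter at 5.95. Of its 20 probe sets 14 were higher in PD5, and 3 had an unadjusted limma p under 0.05, 2 higher and 1 lower. Of all probe sets 4.98% did, 2.55% with PD5 higher. The gene's difference was 0.31 with the median of the probe sets (unadjusted p = 0.0236 in limma) and -0.29 with the brightest. Of its 20 probe sets 5 lay among the dimmest 25% of the array, and the differences ran from -1.84 to 1.10. Nos3, the endothelial synthase gene, was at 9.24 ± 0.06 in PD5 against 9.16 ± 0.08 in SHR (SD over 4 animals each), a difference of 0.07 with an interval from -0.07 to 0.22 (adjusted p = 0.989 in limma). PD5 207 at 9.16 lay among the SHR animals, and SHR 215 at 9.26 lay among the PD5 animals. Of its 19 probe sets 12 were higher in PD5 and 7 lower, and 1 had an unadjusted limma p under 0.05, near the 4.98% of all probe sets.

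Gucy1b1, the beta subunit gene of the guanylyl cyclase that nitric oxide activates, was at 7.67 ± 0.09 in PD5 against 7.66 ± 0.11 in SHR (SD over 4 animals each). The difference was 0.01 with a 95% interval from -0.17 to 0.18 (adjusted p = 0.996 in limma). The lowest animal of each strain, PD5 210 at 7.55 and SHR 218 at 7.49, lay apart from the 3 others, which were between 7.65 and 7.75 in PD5 and between 7.69 and 7.74 in SHR. Of its 14 probe sets 8 were higher in PD5 and 6 lower. Its partner subunit genes, which are not members, were also at similar levels in both strains, with differences of 0.04 for Gucy1a1 and 0.00 for Gucy1a2. These partners and the other genes given without a rule below were named after their values were seen.

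Leaving out any 1 array left the directions of Edn1 and Nos2 in place. The Edn1 difference then ran from -0.47, without PD5 210, to -0.31, without SHR 219, with an unadjusted p from 0.00316 to 0.0274 in limma. The Nos2 difference ran from 0.26, without PD5 209, to 0.35, without PD5 212, with an unadjusted p from 0.00217 to 0.00824 in limma. Without both PD5 210 and SHR 219, the differences were -0.39 for Edn1 and 0.31 for Nos2. The other members were then at -0.082 for Edn2, 0.012 for Edn3, 0.019 for Ece1, 0.17 for Nos1, 0.055 for Nos3 and 0.057 for Gucy1b1. Edn3 and Nos3 thus lay closer to 0, Ece1, Nos1 and Gucy1b1 lay farther from it, and Edn2 changed sign. Across 16 alternatives, the smallest adjusted p was 0.401 for Edn1 and 0.259 for Nos2, so neither passed under any of them.

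**Figure D4:**
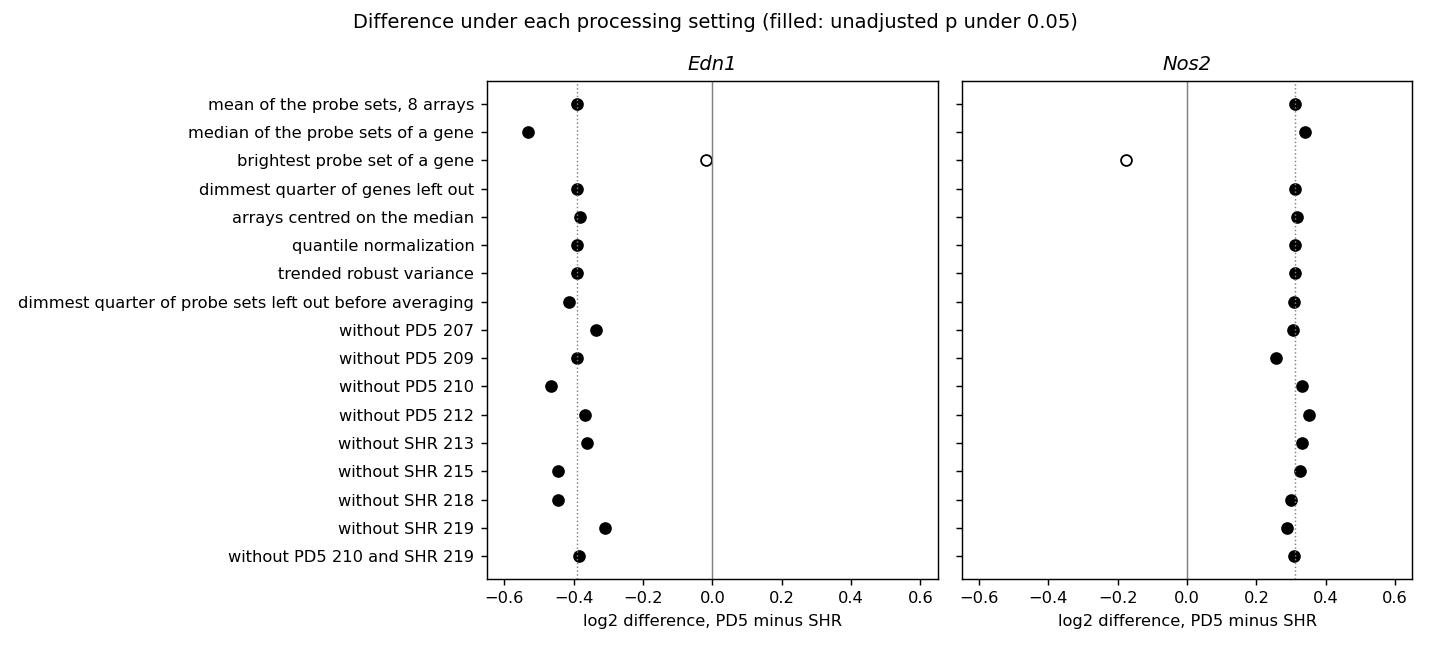
Difference of Edn1 and Nos2 between strains (horizontal axis, PD5 minus SHR in log2 units) as reported, in the top line of each panel, and under each of 16 alternatives. Filled points have an unadjusted limma p under 0.05. Only the setting that takes the brightest probe set of a gene gives open points, at -0.02 for Edn1 and -0.18 for Nos2.

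Other genes of the pathway were grouped in 8 lists by their place in it, with 120 of 132 listed genes measured. None of the 120 passed over all genes, and their smallest adjusted p was 0.242. The median difference was 0.01, with 63 genes above 0 and 57 below. At an unadjusted p under 0.05 in limma there were 9 of 120 genes, or 7.50% against 5.68% of all genes, all 9 higher in PD5. On the higher side of PD5 the share of all genes was 2.77%. The lists were chosen with earlier results of these data known. The counts are therefore descriptions and cannot show an excess in the pathway. The count dropped to 5 when PD5 209, SHR 218, or the pair PD5 210 and SHR 219 was left out.

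Around the endothelin peptides, the 9 measured processing and breakdown genes had a median of 0.02. Ece2 and Ecel1, which encode relatives of the converting enzyme, each differed by 0.20 (unadjusted p = 0.0391 and 0.0381 in limma), Ecel1 at the 17.6 percentile of gene levels and so near the dim end of the array. Downstream of the receptors, 24 genes of G protein signalling had a median of 0.01 and lay between -0.10 and 0.10. None of them had an unadjusted limma p under 0.05. The genes with the smallest p there were Arhgef1 at 0.10 and Plcb1, a phospholipase C gene, at -0.10.

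Around the synthases, genes that supply the cofactor tetrahydrobiopterin had a median of -0.06 over 6 genes. Gchfr, the feedback regulator of the first enzyme of that route, was at -0.10, and Pcbd1, which recycles the cofactor, at -0.07. Arginine and methylarginine handling had a median of 0.03 over 15 genes. There Ass1, which encodes an enzyme that regenerates arginine, differed by 0.30 (SE 0.12, adjusted p = 0.833 in limma), with 5.75 to 6.34 in PD5 and 5.76 to 5.93 in SHR, and Slc7a7, an amino acid transporter gene, by 0.17. In Ass1, PD5 212 lay below all SHR animals and the other 3 PD5 animals above them.

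The 14 measured partners of the synthases had a median of 0.02. Dynll1, a dynein light chain known to bind the neuronal synthase, differed by 0.89 (SE 0.27, adjusted p = 0.656 in limma). But this rests on 1 probe set at the 14.3 percentile of gene levels, near the dim end of the array. With no background level given, the size of the difference is uncertain. Aplnr, the apelin receptor gene of endothelium, was at 10.34 ± 0.07 in PD5 against 10.09 ± 0.17 in SHR (SD over 4 animals each), a difference of 0.25 (adjusted p = 0.775 in limma). Cyclic GMP formation, effectors and breakdown had a median of 0.01 over 22 genes, with the phosphodiesterase genes Pde9a at 0.26 and Pde1b at 0.22. Genes of nitric oxide removal had a median of -0.01 over 11 genes and lay between -0.05 and 0.05, where Sod1, a superoxide dismutase gene, was at -0.05 and Cyb5r3, a reductase gene, at 0.05.

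The 19 measured regulators had a median of 0.00 and the widest range, from -0.24 to 1.65. Fos, a subunit of the AP-1 factor, was at 7.60 ± 0.56 in PD5 against 5.95 ± 0.58 in SHR (SD over 4 animals each), a difference of 1.65 (SE 0.33, adjusted p = 0.242 in limma) with strains that did not overlap. Klf4, a Krüppel-like factor of endothelium, was at 9.13 ± 0.13 in PD5 against 8.85 ± 0.08 in SHR (SD over 4 animals each), a difference of 0.28 (adjusted p = 0.600 in limma), also without overlap. The strains did not overlap in 4 of the 120 genes, or 3.33%, beside 3.46% of all genes. All 4 were higher in PD5, as were 1.58% of all genes without overlap on that side. The choice of the lists bears on this count as well. Irf1, an interferon-responsive factor known to act on the Nos2 gene in mouse macrophages, differed by 0.20 (adjusted p = 0.775 in limma). Irf1 and Rela, a subunit gene of NF-κB named after its values were seen, were the others of those 4. Klf2, which is known to raise Nos3 and lower Edn1 in endothelial cells, was at -0.19 (adjusted p = 0.908 in limma). The GATA and hypoxia factors whose motif letters were searched were near 0, with Gata2 at -0.05, Gata4 at 0.07, Hif1a at 0.01 and Epas1 at -0.04.

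**Figure D5:**
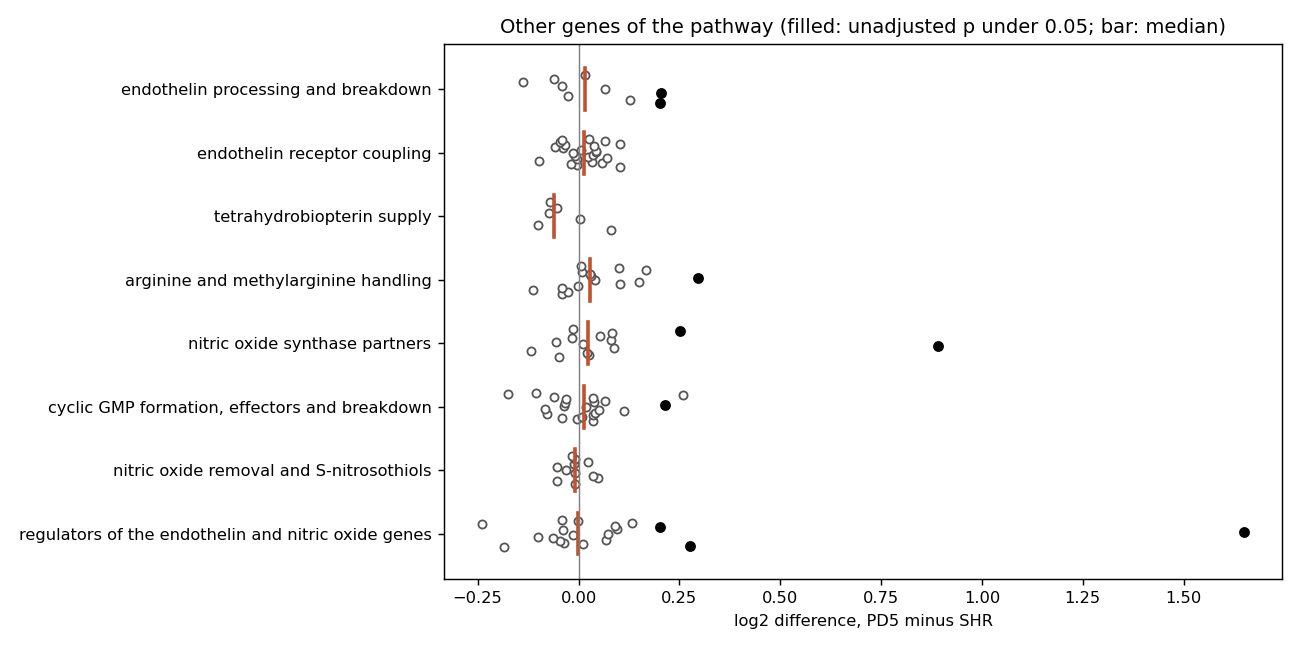
Differences between strains (horizontal axis, PD5 minus SHR in log2 units) of the 120 measured genes in 8 lists of the pathway, 1 point per gene, with the list median as a red bar. Filled points have an unadjusted limma p under 0.05. All 9 filled points lie to the right of 0, with Fos at 1.65 and Dynll1 at 0.89 farthest out. The lists were chosen with earlier results of these data known.

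Markers of the cells that carry these genes were compared in the same fit. Endothelial markers, of the cells that make endothelin-1 and hold Nos3, were higher in PD5 in 6 of 9 measured genes with a median of 0.02. Their summed level lay between 13.17 and 13.25 in PD5 and between 13.16 and 13.29 in SHR (log2), so the PD5 range lay inside the SHR range. Vwf, the von Willebrand factor gene, had the smallest p of that list, at a difference of 0.16 (adjusted p = 0.775 in limma). Markers of endocardium and lymphatic endothelium were higher in 5 of 7, with a median of 0.04, and Lyve1, a lymphatic gene that macrophages also express, was at -0.40 (adjusted p = 0.128 in limma). The strains did not overlap in Vwf, higher in PD5, or in Lyve1, lower in PD5, where this held in 3.46% of all genes. Beside Nos2, which was higher in PD5, macrophage markers were lower in PD5 in 10 of 11 genes, with a median of -0.09. Their summed level lay between 12.49 and 12.65 in PD5 and between 12.54 and 12.75 in SHR (log2), and Cd163 was at -0.41 (adjusted p = 0.775 in limma). Their part in the Nos2 and Edn1 differences was not tested.

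Smooth muscle and pericyte markers, of the cells on which endothelin and nitric oxide act, had a median of -0.01 over 10 genes, with Pdgfrb at 0.09. Cardiomyocyte markers had a median of 0.01 over 8 genes, the dimmest of them at the 97.0 percentile of gene levels, with Myom1 at 0.07. Fibroblast markers had a median of 0.01 over 9 genes, 6 of them higher in PD5, with Mfap5 at -0.20. Schwann cell and neuron markers, of cells that can hold Nos1, had a median of 0.07 and were higher in PD5 in 6 of 7 genes. Uchl1, with the smallest p of that list, was the 1 lower, at -0.22. Adipocyte markers had a median of 0.22 over 8 genes, with a summed level from 11.62 to 12.11 in PD5 and from 11.80 to 11.90 in SHR (log2), and Fabp4 at -0.22. PD5 210 stood apart in some fat genes, named here after their values were seen. The brown fat gene Ucp1 was at 9.05 there and between 3.79 and 4.83 in the 7 other animals. The fat hormone gene Adipoq was at 7.70 there and between 5.89 and 6.65 in the others. Without PD5 210 the difference of Ucp1 went from 1.20 to 0.029. Those of Cidea and Lep, below 0 with all arrays, fell as well, from -0.085 to -0.16 and from -0.097 to -0.15. Fabp4 alone of the list rose, from -0.22 to -0.17. Without PD5 210 the adipocyte median was -0.072 with 4 of 8 genes higher, while Edn1 was at -0.47 and Nos2 at 0.33. Atrial markers were higher in PD5 in 5 of 5 genes with a median of 0.28, but in 4 of 5 with a median of 0.028 without SHR 215, where Myl7 was at 7.23 against 8.67 or more in the other animals. The atrial median was 0.71 without SHR 219, and 0.10 with 4 of 5 genes higher without PD5 212. Without both PD5 210 and SHR 219 it was 1.08, with 5 of 5 genes higher. Their summed level varied most between animals, from 12.23 to 12.78 in PD5 and from 11.95 to 13.04 in SHR (log2), with Myl7 at 0.62 (SE 0.55). No marker in these lists passed over all genes, and none was at 0 on any array.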

How the data were processed

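Total RNA from the left ventricle of 8 male rats was measured on 8 whole-transcript arrays. The authors deposited log2 values per probe set, and these were used unchanged. Per the submitters' processing notes, Partek 6.6 was used. The sources used here do not state how background was corrected, arrays normalized and probe sets summarised, nor the annotation's genome build. The annotation used gives 1 gene for 166557 of 220231 probe sets, several for 1631 and none for 52043. Symbols were updated through RefSeq's GRCr8 gene table: 14377 needed no change, 2837 changed by synonym and 95 stayed unmatched. A gene value was the mean of its probe sets. Strains, taken from the sample titles, were compared in two-sided tests by lmFit and eBayes of limma 3.58.1, under R 4.3.3, over all genes and over all probe sets, and the functions were tested on simulated data. Dim genes were kept. Precision is limited by the number of arrays, and no background level was given.

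The members and lists were chosen with earlier results of these data known. Named genes are the members, the 2 genes with the smallest p in each pathway list, 1 gene per marker list, and, for Edn1 and Nos2, the genes with the most similar and the most opposed pattern. The alternatives were another summary of the probe sets, filters on dim genes and probe sets, 2 normalizations, a trended robust variance model and leaving out arrays. The filter on probe sets before averaging and the removal of PD5 210 with SHR 219, and of single arrays from the fat and atrial markers, were chosen after seeing the data.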

Additional observations from a re-analysis of the deposited data

How the results depend on the processing

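No paired analysis was possible because the strains share no animal number. The direction of Edn1 and Edn3 was the same under all 16 alternatives, and that of Nos2 under 15. In limma Edn1 and Nos2 each had an unadjusted p under 0.05 under 15 of the 16. The exception was the brightest probe set, where Edn1 was at -0.02, Nos2 at -0.18, Nos1 at -0.29 and Ece1 at -0.087, and where 1 member, Edn2, had an unadjusted p under 0.05. Edn2 was at -0.038 with the median of the probe sets, at -0.026 without the dimmest 25% of probe sets and at -0.082 without both PD5 210 and SHR 219. With 1 array left out, differences ran from -0.065 to 0.074 for Edn2, from -0.035 to 0.028 for Ece1 and from -0.047 to 0.047 for Gucy1b1. The 9 genes called over all became 5 with arrays centred on the median, 47 with a trended robust variance, 1 to 7 with 1 array left out, and 0 in limma with the brightest probe set (907 at an unadjusted p under 0.05) or without both PD5 210 and SHR 219 (914). Pathway list genes at an unadjusted p under 0.05 numbered 5 to 9 with 1 array left out and 5 without both arrays. Member probe sets at that threshold numbered 13 of 117 with all arrays, where 4.98% of all probe sets passed it. They numbered 7 to 12 with 1 array left out and 6 without both. Because of how the members were chosen, these counts cannot show an excess either. With the median of the probe sets, 3 members had an unadjusted p under 0.05, Nos1 being the third. The causes were not tested. Of the members' 117 probe sets, 10 were among the dimmest 25% of the array, 5 of 20 in Nos1, 3 of 24 in Nos2 and 1 of 7 each in Edn1 and Edn2, so no member exceeded that share. The values used give no background level.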

Other observations

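Within the strains, the members did not vary as one group. After each strain's mean was subtracted, Pearson's r over the 8 arrays was 0.79 between Ece1 and Nos3, 0.71 between Ece1 and Gucy1b1 and 0.46 between Nos3 and Gucy1b1. Edn1 followed Ece1 at 0.48 and Nos3 at 0.30, and Edn2 followed Edn3 at 0.61. The lowest of the 28 pairs was Nos1 with Nos3 at -0.68, and Edn1 with Nos2 was at -0.20. These correlations share arrays and any difference in overall signal between them, and they are descriptions.

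Of 8160 genes with at least 3 probe sets and a level above the median gene, the pattern most like that of Edn1 within the strains was that of Atoh8, a transcription factor gene (r = 0.99), followed by Ntpcr and Ddx56 (r = 0.97 each), and the most opposed was that of Sarnp (r = -0.99). For Nos2 these were Ppp2r2a, Arih2 and Ap1g1 (r = 0.96 each) and Rps14 (r = -0.98). The differences of these 8 genes between the strains lay between -0.10 and 0.095 on the log2 scale. How often 8 arrays and this many genes give such values by chance was not tested.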
